A study of Salmo salar with 48 samples.

Results

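The amplicon described here covers 15 CpGs over 416 bp of chromosome 4 of the Atlantic salmon genome, at positions 44947109 to 44947524 of the reference sequence used in the deposited files, and it was read in the liver of 48 fish. Its members were chosen by position alone: they are all CpGs listed within that stretch, 15 of the 107 CpGs in the 7 amplified regions of the study. The name of the genome build was not given in the sources used here, and the only gene table used here follows a different assembly, so no gene, exon or promoter is assigned to the stretch and no sequence is shown.

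In vertebrate DNA most cytosines that are followed by a guanine carry a methyl group, and stretches that stay free of it are often found at the starts of genes. Bisulfite changes unmethylated cytosines so that they are read as thymine, while methylated cytosines are still read as cytosine. The share of reads that keep a cytosine at a CpG is its methylation level, given here in percent of the reads of a fish. The levels of this amplicon lay near 0, where cytosines that escaped conversion, base errors and true methylation all add to the same count. The conversion rate was not given in the sources used here, and the part of incomplete conversion in these levels was not tested.

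The fish were juveniles of St. John River stock bred for aquaculture, and each of the 6 groups held 8 different fish. Warm hypoxic fish (WH) were brought down to 70% air saturation within 1 week, held there for 2 weeks, and then warmed from 12 to 20 °C by 1 °C per week. Warm normoxic fish (WN) went through the same warming at 100% air saturation, and control fish (CT) stayed at 12 °C and 100% air saturation. Livers were sampled 4 weeks and 3 days after 20 °C was reached, with the controls labelled by the same 2 times. Each treatment was run in 2 tanks that supplied 4 fish each at both times: tanks T1 and T6 for WH, T2 and T5 for WN, and T3 and T4 for CT. By sex the groups held 2 males and 6 females (WH at 4 weeks and CT at 3 days), 4 and 4 (WN at 3 days) or 5 and 3 (WN and CT at 4 weeks and WH at 3 days). The liver holds several cell types, and these values are averages over them, so a change within cells and a change in the mix of cells cannot be told apart.

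All 720 values, 15 CpGs in 48 fish, had at least 30 reads and were used. In 47 fish the median number of reads per CpG lay between 6110 and 46190. The exception was control fish 108, a male of tank T3 at 4 weeks, with 57 to 59 reads per CpG. In that fish 10 CpGs had no methylated read, which allows a level of up to 5.26%, and 5 had 1 or 2 methylated reads and so levels of 1.69% to 3.45%. Its values enter the tests as planned, and the results named as resting on it are also given without it. Descriptions over the CpGs use the other 47 fish unless 48 are named.

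The amplicon was almost free of methylation in every group. The level averaged over its CpGs was 0.505% ± 0.140 (SD, n = 48 fish) with fish from 0.263% to 0.908%, and 0.496% ± 0.128 in the 47 deeply read fish, with fish from 0.263% to 0.867%. Of the 705 single values of these 47 fish, 229 lay below 0.2% (32.5%), 282 between 0.2% and 0.5% (40%), 101 between 0.5% and 1% (14.3%) and 93 at or above 1% (13.2%). Within a fish the median over the 15 CpGs ranged from 0.179% to 0.469%, with a middle value of 0.260%.

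**Figure D1:**
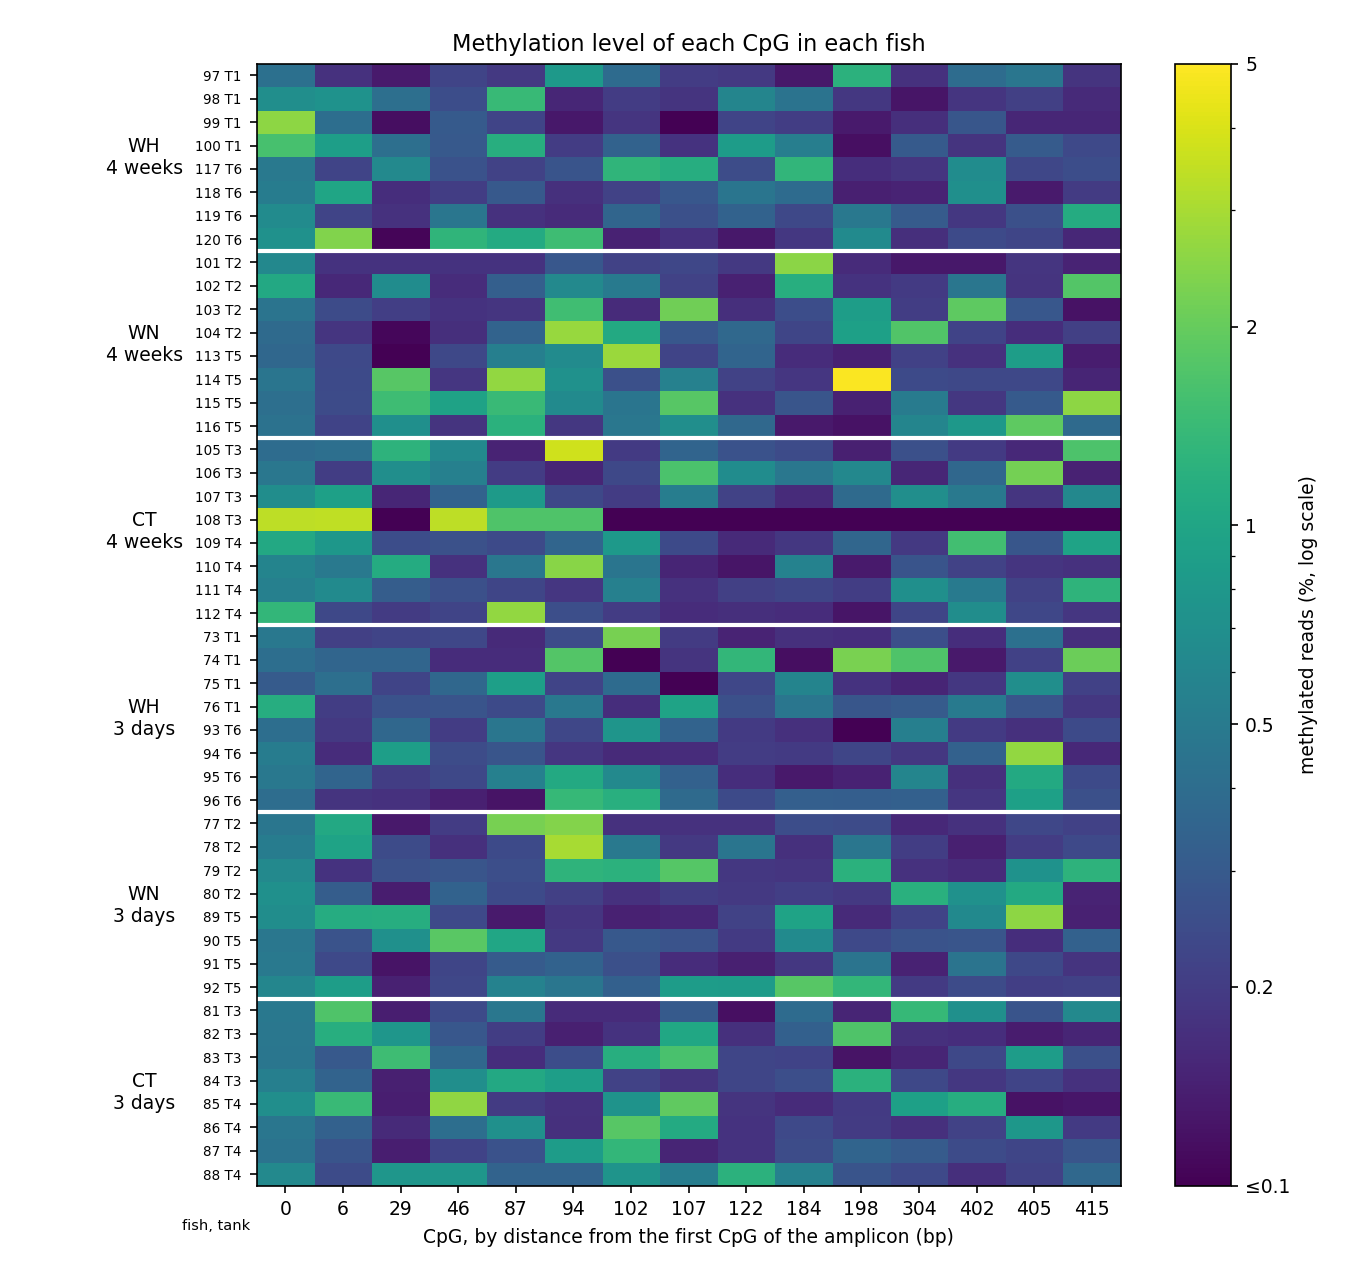
Methylation level of each of the 15 CpGs (columns, in order along the amplicon) in each of the 48 fish (rows, by group), in percent on a logarithmic colour scale that is clipped at its ends. Bright cells lie on a dark ground, at different CpGs in different fish, and the row of control fish 108 rests on 57 to 59 reads per CpG.

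Values far above this low ground sat at few of the CpGs of a fish, at times at neighbouring ones. The highest CpG of a fish reached 0.485% to 4.86%, with a median of 1.78%, and was 2.07 to 20.3 times the median over the CpGs of the same fish, with a middle ratio of 6.20. The 3 highest CpGs of a fish made up 35.2% to 71.7% of the sum of its 15 levels, with a median of 51%. The largest value was 4.86% in WN fish 114 at 4 weeks, at position 44947307, where 650 of 13365 reads were methylated (95% Wilson interval 4.51% to 5.24%). CT fish 105 at 4 weeks had 3.78% at 44947203, from 1066 of 28231 reads (interval 3.56% to 4.00%). These intervals, and the limits for counts of 0, cover counting error only, because reads of a PCR product without molecular identifiers are not independent molecules.

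Which CpG was high differed from fish to fish. A value of 1% or more, a cutoff chosen after the values were seen, occurred at each of the 15 CpGs, in 2 to 11 of the 47 fish. The highest CpG of a fish was found at 14 of the 15 CpGs; 44947138 was the exception. By fish, 5 had no value of 1% or more, 13 had 1, 24 had 2 or 3, and 5 had 4 or more. Of the 93 values of 1% or more, 26 had a directly neighbouring CpG at 1% or more in the same fish, and in 14 of 658 pairs of neighbours, counted over fish, both were that high. The number to expect if CpGs varied independently was not computed.

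Across fish, the levels of CpGs that lie close together were correlated weakly or not at all, with both signs. Positions 44947511 and 44947514 are 3 bp apart; 3 fish had 1% or more at the first and 6 at the second, and 0 fish had it at both. Of the other 5 pairs within 10 bp, 2 also had 0 such fish. At 44947211 and 44947216, 5 bp apart, 9 fish each had 1% or more and 4 had it at both. At 44947203 and 44947211, 8 bp apart, 11 and 9 fish had it and 3 had it at both, and at 44947196 and 44947203, 7 bp apart, 10 and 11 had it and 2 had it at both. Over 47 fish the levels of the 105 pairs of CpGs had a median Pearson r of -0.05, with single pairs from -0.28 to 0.34. For the 6 pairs within 10 bp the median was 0.02 and the range -0.18 to 0.11. The points of each pair share the library and the depth of a fish, and the correlations are given as a description without a test. With fish 108 included, the r of 44947115 and 44947155 was 0.638, against 0.323 without it.

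**Figure D2:**
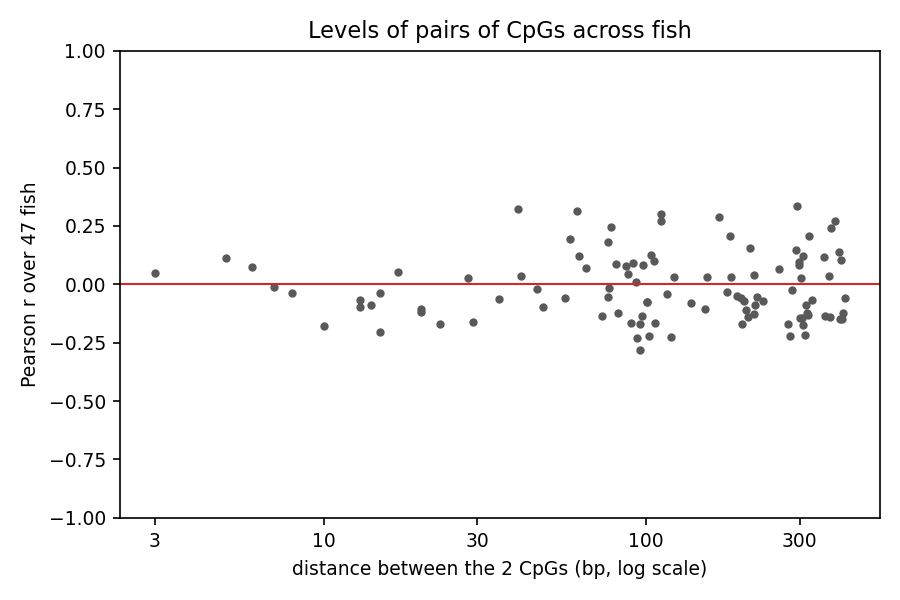
Pearson correlation over 47 fish between the levels of 2 CpGs (vertical axis) against the distance between them in bp (horizontal axis, logarithmic), with 1 point for each of the 105 pairs and a line at 0. The points lie between -0.28 and 0.34 at all distances, including the pairs within 10 bp.

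Described from the 5′ end of the plus strand, the first CpG, 44947109, had the highest low ground. Its median was 0.485%, and its mean was 0.634% ± 0.385 (SD, n = 47). None of the 47 fish had less than 0.3% there: the lowest fish had 0.310%, whereas the lowest fish of the other CpGs had between 0.065% and 0.156%. In 45 of the 47 fish it was above that fish's own median over the 15 CpGs. Its high values were few, with 6 fish at 1% or more and WH fish 99 at 4 weeks highest at 2.57%. The cause of the raised low ground was not tested.

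The next 3 CpGs lie within 46 bp of the first. Position 44947115 had a median of 0.30% and a mean of 0.518% ± 0.472 (SD, n = 47), and its highest fish, WH fish 120 at 4 weeks, had 2.40%. At 44947138 the median was 0.225%, the mean 0.442% ± 0.432 and the highest fish, WN fish 114 at 4 weeks, at 1.81%. For 44947155 the median was 0.247% and the mean 0.404% ± 0.453, with CT fish 85 at 3 days highest at 2.61%.

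A run of 5 CpGs lies at 87 to 122 bp from the first. Position 44947203 had the highest mean and the largest SD of the 15 CpGs, 0.742% ± 0.871 (SD, n = 47), but a median of 0.290%, and 11 fish at 1% or more. Its neighbour 44947196 had a mean of 0.590% ± 0.625 and a median of 0.299%, with CT fish 112 at 4 weeks highest at 2.65%. Position 44947211 averaged 0.570% ± 0.578 with a median of 0.342% and 44947216 averaged 0.537% ± 0.566 with a median of 0.259%; their highest fish were WN fish 113 (2.76%) and WN fish 103 (2.15%), both at 4 weeks. The run ends with the lowest mean and the smallest SD of the amplicon, 0.310% ± 0.268 at 44947231, where the median was 0.209% and the highest fish had 1.33%.

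The remaining 6 CpGs, at 184 to 415 bp, had medians from 0.203% to 0.238%. Position 44947307 combined the lowest median, 0.203%, with a mean of 0.525% ± 0.802 (SD, n = 47) that includes the 4.86% of WN fish 114, which is 23.9 times that median. Means at the others were 0.412% ± 0.460 at 44947293, 0.385% ± 0.390 at 44947413, 0.398% ± 0.361 at 44947511, 0.516% ± 0.622 at 44947514 and 0.457% ± 0.570 at 44947524. At all 15 CpGs the mean lay above the median.

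The base after the CpG, given in the files, is known for all members: 7 CpGs are followed by T, 3 by A, 3 by C and 2 by G. Medians over 47 fish were 0.209% to 0.247% for those followed by T, 0.259% to 0.485% for A, 0.290% to 0.30% for C and 0.203% to 0.225% for G. The 6 CpGs followed by A or C thus had higher medians than the 9 followed by T or G, a split seen in these values and not tested. All calls were on the plus strand, so the opposite strand gave no second reading of any CpG.

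**Figure D3:**
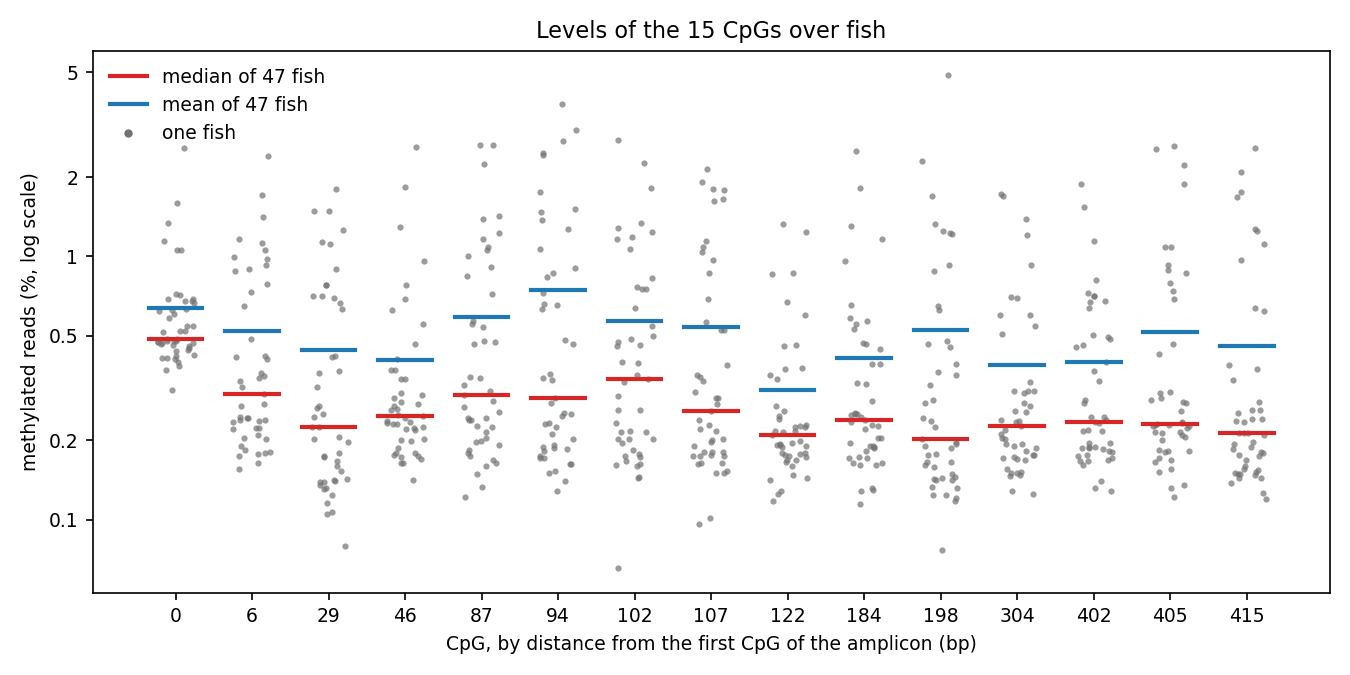
Levels at each of the 15 CpGs in percent (logarithmic axis), with 1 point per fish for the 47 deeply read fish and lines at the median and the mean, by distance in bp from the first CpG. The first CpG has no fish under 0.3%, and at every CpG a few fish lie far above the median.

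At 4 weeks, WH livers had the lowest mean of the amplicon and neither comparison with the other treatments passed the threshold of 0.05 after adjustment. The region mean was 0.428% ± 0.10 in WH fish (lowest 0.335%, median 0.377%, highest 0.611%), 0.596% ± 0.160 in WN fish (0.369%, 0.577%, 0.867%) and 0.565% ± 0.161 in CT fish (0.415%, 0.510%, 0.908%; SD, n = 8 each). Of the 8 WH fish, 7 lay below the CT mean and 5 below every CT fish, and the groups overlapped. The WH fish were 2 males and 6 females, the WN and CT fish 5 males and 3 females each. Females averaged 0.410% in WH, 0.629% in WN and 0.491% in CT. Males averaged 0.484% in WH, 0.577% in WN and 0.609% in CT, or 0.535% in CT without fish 108. WH minus CT was -0.136 percentage points (95% interval -0.281 to 0.000425), with an exact permutation p of 0.0511, adjusted over the 6 regions tested to 0.153. Without CT fish 108 the CT mean was 0.516% ± 0.0893 (n = 7) and the difference was -0.0873 points. This was the smallest difference with any single fish left out, and it did not pass the threshold. Only leaving out WH fish 120 did. Without WH fish 120, the highest of its group, the difference was -0.162 points, with an adjusted p of 0.0466 in the exact permutation test. Over all single fish left out, the adjusted p of that test ran from 0.0466 to 0.279. Leaving out tank T3 gave -0.0481 points and leaving out T4 gave -0.225 points. The second value compares with T3 alone, whose mean was 0.653% with fish 108 and 0.568% ± 0.117 (n = 3) without it. On the median over the CpGs of each fish the difference was -0.0372 points (adjusted p 0.817 in the exact permutation test), but the median of fish 108 was 0 from too few reads, and without it the difference was -0.0759 points (adjusted p 0.106).

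Set against WN at the same time, WH was lower by more. The difference was -0.168 points (95% interval -0.312 to -0.0262), with an exact permutation p of 0.0246, adjusted to 0.147. Of the 8 WH fish, 7 lay below the WN mean and 4 below every WN fish. Without WN fish 101, the lowest of its group, the difference was -0.200 points with an adjusted p of 0.0382 in the exact permutation test. Over all single fish left out, the adjusted p of that test ran from 0.0382 to 0.275. On medians over the CpGs the difference was -0.0663 points, and without tank T5 it was -0.0937 points. Values of 1% or more made up 13 of 120 in WH fish (10.8%), 20 of 120 in WN fish (16.7%) and 12 of 105 in the 7 deeply read CT fish (11.4%).

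No single CpG passed the adjusted threshold in the 4-week comparisons: 0 of 15 CpGs here, and 0% of all 94 CpGs tested in each. WH against CT had 0 of 15 with an unadjusted p under 0.05 (2.13% of all 94 CpGs), 11 lower and 4 higher (57.4% of all 94 were lower), and a median difference of -0.137 points against -0.0501 points over all 94 CpGs. WH against WN had 1 of 15 (3.19% of all), again 11 lower and 4 higher (64.9% of all lower), with a median of -0.268 points against -0.120 points over all. WN against CT had 1 of 15 (4.26% of all), with 4 lower and 11 higher (44.7% of all lower) and a median of 0.0565 points against 0.0342 points over all. The 94 CpGs include these 15 and those of regions with mean levels of 26.6% and 92.3%. Median differences in points over all 94 are thus not on a like scale.

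Position 44947115 had the smallest p of the 4-week comparisons that involve WN. WN fish at 4 weeks ranged from 0.156% to 0.244% with a median of 0.229%, WH fish from 0.175% to 2.40% with a median of 0.569%, and CT fish from 0.203% to 3.45% with a median of 0.567%. The 3.45% is CT fish 108, from 2 of 58 reads, and the next highest CT fish had 0.923%. All 8 WN fish were thus near the low ground, while WH and CT fish spread upward from the same low values, so the groups overlapped. WN minus CT was -0.680 points (exact permutation p 0.00311, adjusted over 94 CpGs to 0.292), and -0.315 points without CT fish 108. WH minus WN was 0.543 points (exact permutation p 0.0165, adjusted 0.774), and 0.308 points without WH fish 120.

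The other CpGs with the smallest p at 4 weeks rested on few fish. At 44947109 WN minus CT was -0.534 points (exact permutation p 0.0954, adjusted 0.982), and -0.200 points without CT fish 108. At 44947203 WH fish averaged 0.425% ± 0.483 and CT fish 1.14% ± 1.37 (n = 8 each), a difference of -0.716 points (exact permutation p 0.187, adjusted 0.866) that became -0.340 points without CT fish 105. WH minus CT at 44947231 was 0.155 points, with an adjusted p of 0.866, and 0.0859 points without WH fish 100. WH minus WN at 44947413 was -0.278 points, with an adjusted p of 0.906, and -0.10 points without WN fish 104. The region mean of WN minus CT was 0.0316 points (95% interval -0.142 to 0.201; exact permutation p 0.700, adjusted 0.840); it was 0.0806 points without CT fish 108 and -0.00711 points without WN fish 114.

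**Figure D4:**
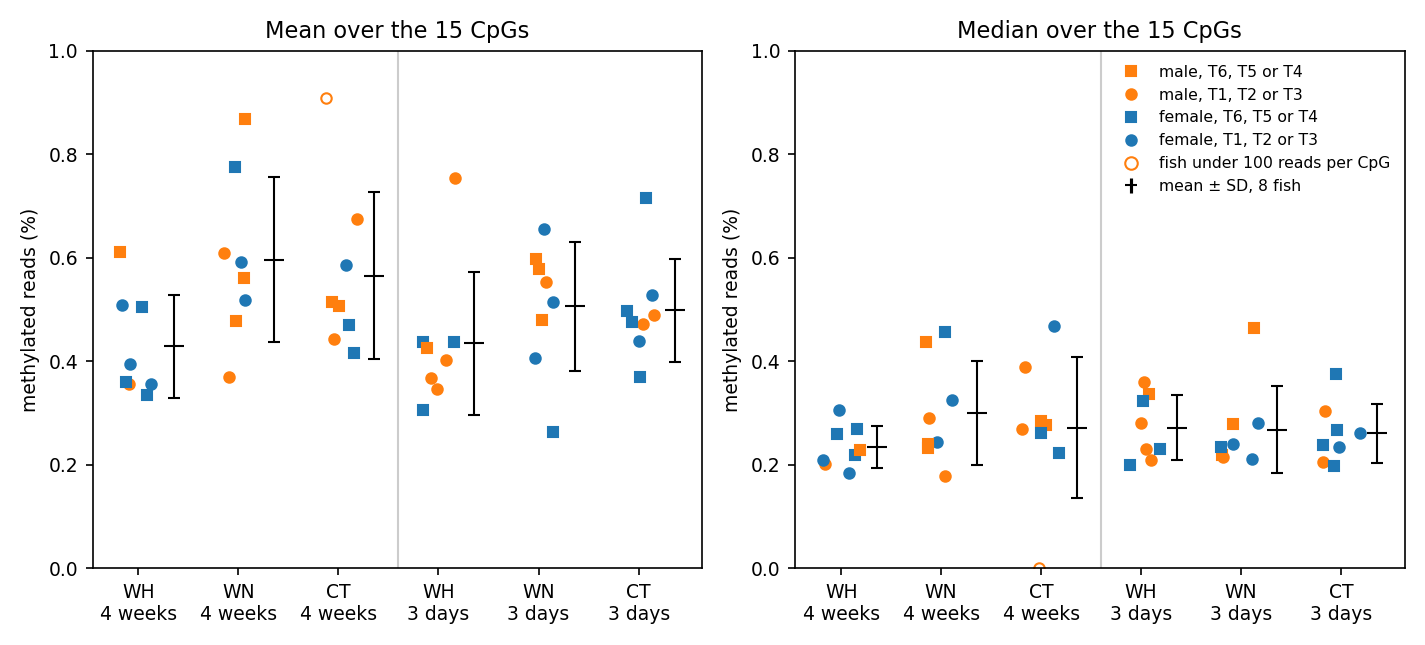
Mean (left) and median (right) over the 15 CpGs in percent of reads, with 1 point per fish, coloured by sex and shaped by tank, and the group mean ± SD (n = 8), by treatment and time; the open circle is control fish 108. In the left panel, WH fish at 4 weeks lie between 0.335% and 0.611%, and all groups overlap.

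At 3 days the treatments were closer together. The region mean was 0.434% ± 0.138 in WH fish (lowest 0.305%, median 0.414%, highest 0.754%), 0.506% ± 0.124 in WN fish (0.263%, 0.534%, 0.655%) and 0.499% ± 0.0998 in CT fish (0.369%, 0.483%, 0.716%; SD, n = 8 each), with all groups overlapping. WH minus CT was -0.0642 points (95% interval -0.184 to 0.0650; exact permutation p 0.322, adjusted 0.804). It was -0.110 points without WH fish 74 and -0.0331 points without CT fish 85. WH minus WN was -0.0714 points (interval -0.203 to 0.0703; exact permutation p 0.295, adjusted 0.418), and -0.117 points without WH fish 74. WN minus CT was 0.00724 points (interval -0.115 to 0.124; exact permutation p 0.901, adjusted 0.901). On medians over the CpGs the 2 differences of WH turned to 0.0111 points against CT and 0.00386 points against WN. Values of 1% or more were 12 of 120 in WH fish (10%), 18 of 120 in WN fish (15%) and 18 of 120 in CT fish (15%).

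None of the 15 CpGs passed the adjusted threshold at 3 days either, with 0% of all 94 CpGs called in each comparison. Unadjusted p under 0.05 occurred at 2 of 15 for WH against CT (7.45% of all 94), 1 of 15 for WH against WN (5.32% of all) and 0 of 15 for WN against CT (7.45% of all). The mean of WH was below that of CT at 10 of 15 CpGs (57.4% of all 94), that of WH below WN at 10 of 15 (58.5% of all) and that of WN below CT at 8 of 15 (39.4% of all).

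The 2 CpGs with the smallest p for WH against CT at 3 days were both among the first 4 of the amplicon. At 44947155 WH fish ranged from 0.142% to 0.369% with a median of 0.232%, and CT fish from 0.220% to 2.61% with a median of 0.390%. WH minus CT was -0.468 points there (exact permutation p 0.0113, adjusted 0.355), and -0.196 points without CT fish 85. At 44947115 WH fish ranged from 0.165% to 0.417% with a median of 0.207%, WN fish from 0.178% to 1.12% with a median of 0.599%, and CT fish from 0.246% to 1.71% with a median of 0.340%. WH minus CT was -0.464 points (exact permutation p 0.0401, adjusted 0.586), and WH minus WN was -0.370 points (exact permutation p 0.0420, adjusted 0.721). The groups overlapped at both CpGs.

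For WN against CT at 3 days the smallest p belonged to 44947211, at -0.408 points (exact permutation p 0.121, adjusted 0.708), followed by 44947203, at 0.634 points (p 0.170, adjusted 0.830). The first was -0.263 points without CT fish 86 and the second 0.349 points without WN fish 78. The difference at 44947203 became -0.0822 points without tank T2. The second CpG for WH against WN was 44947511, at -0.118 points (exact permutation p 0.215, adjusted 0.780); it was -0.0650 points without WN fish 80.

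**Figure D5:**
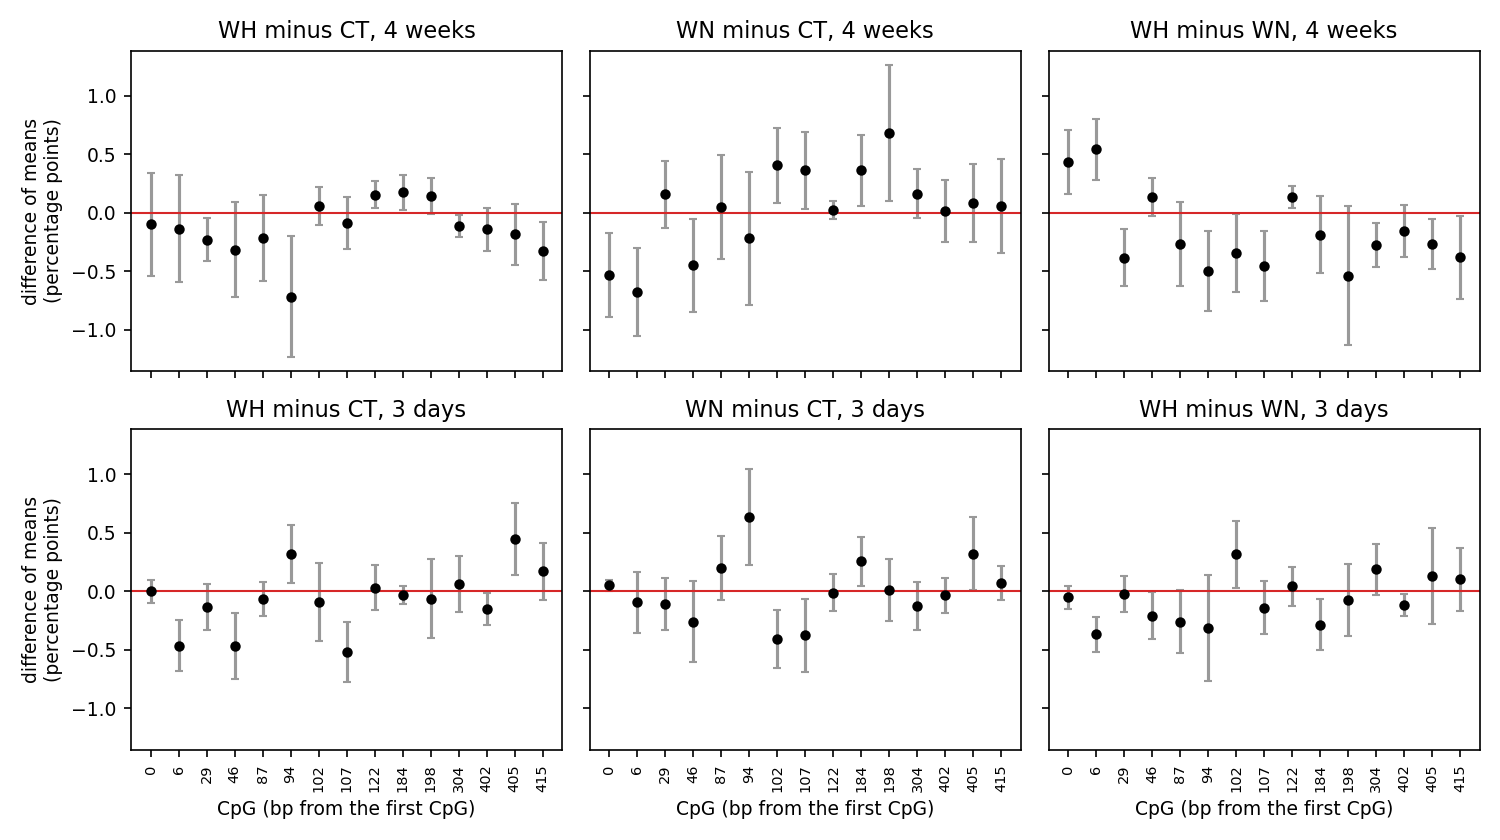
Difference of group means at each of the 15 CpGs in percentage points (points, with bars of ± 1 SE), by distance in bp from the first CpG, for the comparisons of treatments at 4 weeks and at 3 days. No CpG passed the adjusted threshold, and each comparison holds differences of both signs.

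Within a treatment, no difference between the 2 times passed the threshold. In WH fish the region mean was 0.428% at 4 weeks and 0.434% at 3 days, a difference of -0.00593 points (95% interval -0.137 to 0.114; exact permutation p 0.927, adjusted 0.927). WN fish had 0.596% at 4 weeks and 0.506% at 3 days, a difference of 0.0906 points (interval -0.0632 to 0.246; exact permutation p 0.229, adjusted 0.458). CT fish had 0.565% at 4 weeks and 0.499% at 3 days, a difference of 0.0662 points (interval -0.0708 to 0.211; exact permutation p 0.363, adjusted 0.713) that was 0.0172 points without fish 108. The 3 comparisons called 0 of 15 CpGs (0% of 94 in each), and their counts with an unadjusted p under 0.05 were 3 of 15 in WH (7.45% of all), 1 of 15 in WN (3.19% of all) and 0 of 15 in CT (3.19% of all).

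Among these, 44947115 in WN fish had the smallest p: 0.156% to 0.244% at 4 weeks, against 0.178% to 1.12% at 3 days, a difference of -0.417 points (exact permutation p 0.00746, adjusted 0.701). The second in WN was 44947138, at 0.294 points (adjusted p 0.972), which was 0.129 points without fish 114. In WH fish 44947514 ranged from 0.132% to 0.463% at 4 weeks, against 0.171% to 2.63% at 3 days. Its difference was -0.556 points (exact permutation p 0.0267, adjusted 0.557), and -0.295 points without fish 94. At 44947413 in WH it was -0.311 points (exact permutation p 0.0269, adjusted 0.557), and -0.142 points without fish 74. In CT fish the smallest p were at 44947211, with -0.464 points (adjusted p 0.924), and at 44947109, with 0.536 points (adjusted p 0.924) that became 0.203 points without fish 108.

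Whether the treatment differences changed with time was tested by the interaction in limma on M-values, log2 ratios of methylated to unmethylated reads with 1 added to each. For the region the 4-week difference minus the 3-day difference was -0.36 (SE 0.32, adjusted p 0.396) for WH against CT and -0.27 (SE 0.32, adjusted p 0.824) for WN against CT, on the log2 scale. Both values rested on fish 108, whose counts of 0 are raised by the added read: without it they were -0.03 (SE 0.19, adjusted p 0.893) for WH and 0.07 (SE 0.19, adjusted p 0.994) for WN. In percentage points the same change was -0.0722 for WH and 0.0244 for WN, and -0.0232 and 0.0734 without fish 108; it was not tested on that scale. Neither interaction called any of the 15 CpGs, with 0% of 94 called in each. At an unadjusted p under 0.05 the share of all 94 CpGs was 4.26% for WH and 0% for WN, with 0 of the 15 here in both.

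Males and females did not differ past the threshold. The region mean was 0.538% ± 0.152 in 23 males and 0.474% ± 0.124 in 25 females. Without fish 108 the males averaged 0.521% ± 0.132 (n = 22). The difference after removal of the group means was 0.0479 points (permutation within groups, p 0.252, adjusted 0.757), and it was -0.0140 points on medians over the CpGs, or -0.00313 points without fish 108. Of the 15 CpGs 0 were called (0% of 94), and 2 had an unadjusted p under 0.05 (4.26% of all). The smallest p was at 44947115: males had 0.759% ± 0.814 (0.175% to 3.45%, median 0.415%) and females 0.414% ± 0.331 (0.156% to 1.41%, median 0.246%). The 3.45% is fish 108, and the highest deeply read male, WH fish 120 at 4 weeks, had 2.40%. The difference within groups was 0.483 points (permutation p 0.00168, adjusted 0.158), and 0.386 points at a minimum of 100 reads, which removes fish 108, with an adjusted p of 0.152. This CpG also had the smallest p in 4 of the 9 comparisons of treatments and times, which share fish. All but WH against WN at 3 days used the WN fish of 4 weeks, so they are not separate results. Most of them had unevenly spread sexes, and there the group with more males had the lower mean. WN fish at 4 weeks (5 males) averaged 0.213%, WH fish at 4 weeks (2 males) 0.756% and WN fish at 3 days (4 males) 0.630%. WH fish at 3 days (5 males) averaged 0.26%. The part of sex was not tested. WN and CT at 4 weeks were evenly matched, with 5 males and 3 females each. Their difference within sex is thus bound to equal the plain -0.680 points (adjusted p 0.224 in the permutation within sex). It cannot show the part of sex, and within-sex values of the uneven comparisons are not given here.

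The 2 tanks of a treatment, sampled at both times, did not differ past the threshold in the region mean. In WH fish they were 0.427% ± 0.0985 in T6 and 0.436% ± 0.139 in T1, a difference of -0.00830 points (exact permutation within times, p 0.904, adjusted 0.904). WN fish had 0.575% ± 0.186 in T5 and 0.527% ± 0.0985 in T2 (0.0479 points, exact p 0.519, adjusted 0.90). CT fish had 0.496% ± 0.102 in T4 and 0.568% ± 0.159 in T3 (-0.0720 points, exact p 0.321, adjusted 0.80), and T3 averaged 0.519% ± 0.0857 (n = 7) without fish 108. The tank comparisons called 0 of 15 CpGs (0% of 94 in each). They had 0 of 15 with an unadjusted p under 0.05 in WH (1.06% of all), 1 of 15 in WN (5.32% of all) and 1 of 15 in CT (2.13% of all). The sexes were unevenly spread over the tanks: at 3 days the WH fish of T1 were all male and the CT fish of T4 all female. Differences between tanks and between sexes were not separated.

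The CpG behind the count in WN was 44947203, which ranged from 0.183% to 0.725% in T5 fish and from 0.211% to 3.01% in T2 fish, a difference of -1.08 points (exact permutation p 0.0224, adjusted 0.576). In CT it was 44947211, with 0.835% ± 0.513 in T4 and 0.294% ± 0.360 in T3 (n = 8 each), a difference of 0.541 points (exact permutation p 0.0151, adjusted 0.993). The T3 values there include fish 108, with 0 methylated of 59 reads. In WH the smallest p was at 44947231, at -0.233 points for T6 minus T1 (adjusted p 0.992). At 4 weeks the region mean of WN fish was 0.671% ± 0.181 in T5 and 0.522% ± 0.109 in T2, and that of CT fish 0.477% ± 0.0451 in T4 and 0.653% ± 0.195 in T3 (SD, n = 4 each). Without fish 108 the T3 mean at 4 weeks was 0.568% ± 0.117 (n = 3).

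Of the 6 regions tested, the chromosome 4 stretch at 45 Mb was 1 of 4 with a low level, and paired differences within the same 48 fish set it against the other 3. It was lower than the chromosome 14 region at 34 Mb in 48 of 48 fish, with a mean difference of -0.860 points (0.505% ± 0.140 against 1.36% ± 0.458). It was lower than the chromosome 3 region at 14 Mb in 39 of 48 fish, with a mean difference of -0.188 points (against 0.692% ± 0.149). Both had a sign-flip permutation p of 1e-05, the smallest that 100000 resamples give, adjusted over the 3 comparisons to 1.5e-05. Against the chromosome 16 region at 38 Mb (0.539% ± 0.0541) the difference was -0.0347 points, lower in 32 of 48 fish, with a permutation p of 0.0935, also after adjustment. Without fish 108 it was -0.0425 points with an adjusted p of 0.0329.

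The amplicon and the chromosome 16 region had near means but different spreads. Here the middle single value was 0.253%, 13.2% of values were at or above 1%, and the highest CpG of a fish was, in the middle, 6.20 times the fish's median. In the chromosome 16 region the middle value was 0.472%, 11.1% of values were at or above 1%, and the ratio was 2.87. The ratios were 4.38 for the chromosome 3 region and 5.23 for the chromosome 14 region. Median reads per CpG were 25362 here, 10435 on chromosome 16, 436 on chromosome 3 and 31458 on chromosome 14, and the part of depth in these ratios was not tested. The difference between this amplicon and the chromosome 16 region in the median over CpGs was -0.214 points, with an adjusted permutation p of 1e-05, the smallest the resamples give.

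Fish that were high in this amplicon were not detectably high elsewhere. Across 48 fish, with group means removed, its region mean had a Pearson r of 0.240 with the chromosome 16 region, 0.156 with chromosome 14, -0.0319 with chromosome 3, -0.223 with the chromosome 4 region at 35 Mb and -0.241 with the chromosome 9 region. The Spearman rho were 0.174, 0.0966, 0.0174, -0.238 and -0.236 in the same order. The permutation p of r for these regions, adjusted over the 6 relations, lay between 0.227 and 0.843. Without the 2 fish farthest from the median of the other region, r lay between -0.236 and 0.219. The sixth relation, with the log10 of the reads per fish in this amplicon, had r = -0.480 (permutation p 0.00946, adjusted 0.0568) and rho = -0.167 (adjusted 0.395). It rested on the shallowest fish: without the 2 fish farthest from the median depth r was -0.00066, and without fish 108 alone it was -0.250 (adjusted p 0.259).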

How the data were processed

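Bisulfite amplicon sequencing was done on liver DNA of 48 fish, converted with a commercial kit and run on a MiSeq, per the labels' protocols. Tools listed in the submitters' processing notes are Bismark 0.20.0, Bowtie2 (no version), Trim Galore 0.4.4 and MultiQC 1.9. Not given in the sources used here are their settings, the handling of duplicates, the build and the conversion rate. The deposited files give whole-number counts of methylated and unmethylated reads per CpG, without normalization. The sample name in each of the 48 files matched its title, and group, sex and tank come from the labels. No 2 fish had identical counts, and the closest pair within a group had a chi-square per CpG of 7.24.

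Levels are 100 × methylated / all reads, at CpGs with at least 30 reads. CpGs were tested with at least 6 fish per group, and the region mean is the unweighted mean over CpGs. Group differences were tested with two-sided exact permutation tests over 12870 splits of the fish (smallest p 0.000155), tanks over 4900 splits within times (smallest p 0.000408), and sex, paired region differences and correlations with 100000 resamples. The Benjamini-Hochberg adjustment ran over the 94 CpGs or the 6 regions of a comparison, with a threshold of 0.05; the 95% intervals hold the shifts not rejected. Interactions used limma 3.58.1 in R 4.3.3 on all 48 fish, other steps Python 3.11.15. Scripts were tested on simulated data. P-values measure the spread between fish and not that between tanks, of which each treatment had 2.

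All 15 CpGs are described; in each comparison the CpGs named are those past the threshold or, with none, the 2 (for sex and tank, the 1) with the smallest p. The members, tests and lists were chosen with earlier results of these data known. Alternatives were minimums of 10 and 100 reads, weighting fish by reads, medians over CpGs, limma, permutation within sex or tanks, a tank block, and leaving out each tank or fish; leaving out the 3 fish with the most reads outside the regions, and fish 108 in the comparison with other regions, in limma and on medians over CpGs, was added after seeing the data.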

Additional observations from a re-analysis of the deposited data

Results flagged for a closer look

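In 42 of 96 sets of 8 values checked (15 CpGs and the region mean in 6 groups), the highest fish stood apart by a gap to the next fish that was large against the range of the group; chance gives about 1 in 20 sets for values that spread normally, and the rate for right-skewed values such as these was not computed. In all 42 the fish that stood apart was the highest, and 40 of them were single CpGs. All are levels in percent.

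In WH fish at 4 weeks, fish 120 stood apart at 44947115 (2.40) and 44947155 (1.29), and fish 117 at 44947211 (1.28), 44947216 (1.15) and 44947293 (1.31). Fish 97 did so at 44947307 (1.24) and fish 119 at 44947524 (1.11). Among WN fish at 4 weeks a different fish stood apart at each of 8 CpGs. These were fish 102 at 44947109 (1.06), fish 115 at 44947155 (0.958), fish 113 at 44947211 (2.76), fish 101 at 44947293 (2.52), fish 114 at 44947307 (4.86), fish 104 at 44947413 (1.72), fish 103 at 44947511 (1.88) and fish 116 at 44947514 (1.88). In CT fish at 4 weeks, the shallow fish 108 stood apart at 44947109 (3.39), 44947115 (3.45) and 44947155 (3.39), each from 2 methylated reads. Fish 106 did so at 44947216 (1.65), 44947231 (0.672) and 44947514 (2.22), and fish 109 at 44947511 (1.54).

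In WH fish at 3 days, fish 74 stood apart in the region mean (0.754) and at 44947231 (1.33), 44947307 (2.29), 44947413 (1.69) and 44947524 (2.08). Fish 76 did so at 44947109 (1.14) and 44947216 (0.965), and fish 94 at 44947138 (0.894) and 44947514 (2.63). Among WN fish at 3 days, fish 79 stood apart at 44947211 (1.24), 44947216 (1.78) and 44947524 (1.25), fish 90 at 44947155 (1.83), fish 77 at 44947196 (2.23), fish 92 at 44947231 (0.856), fish 80 at 44947413 (1.21) and fish 89 at 44947514 (2.56). In CT fish at 3 days, fish 85 stood apart in the region mean (0.716) and at 44947155 (2.61), and fish 88 at 44947231 (1.24). The cause of these values was not tested.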

How the results depend on the processing

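All 99 counts of called CpGs under other settings were 0. Settings without a tank had fewer fish and fewer possible splits, hence a larger smallest p. Permutation within sex also had fewer splits, the fewest where the sexes were most uneven. A CpG could hardly pass without a tank, nor a single CpG within sex where the sexes were most uneven. Those counts of 0 say little. Several small differences of region means changed sign, and the cause was not tested except where fish 108 is named. For WN minus CT at 3 days the difference turned to -0.033 in limma (log2 M-value), -0.00146 within sex, -0.0190 without tank T2 and -0.00894 without T3. It was -0.00123 without the 3 fish with most calls outside the regions (84, 120 and 101). Leaving out single fish gave -0.0141 to 0.0420, with a negative sign without CT fish 84 or 87 or WN fish 79, 89 or 92. At CpG 44947203 the difference was -0.0822 without T2. WN minus CT at 4 weeks was -0.30 in limma (0.03 without fish 108), -0.00962 on medians over CpGs without fish 108, -0.0566 without T4, -0.0426 without T5, and -0.00711 to 0.0806 without single fish. The value without T4 compares with T3 alone, which holds fish 108. On medians over CpGs the differences were 0.0111 for WH minus CT and 0.00386 for WH minus WN at 3 days, -0.0140 for male minus female (-0.00313 without fish 108) and 0.0108 for tank T6 minus T1, the last being 0.0364 with fish weighted by reads. The difference of 4 weeks minus 3 days was -0.0381 in CT without T3, -0.00991 in WN without T5, and in WH 0.0470 with fish weighted by reads and 0.0514 without T1. Without single fish that of WH ran from -0.0320 to 0.0397, with a positive sign without fish 74, 97, 99, 118 or 119.

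The 4-week differences of WH passed the threshold under some settings. Of the 3 fish named above, WH minus CT holds only fish 120, the highest WH fish. Without it WH minus CT was -0.162 (adjusted p 0.0466 in the exact permutation test), the same result as leaving out that single fish. WH minus WN also holds fish 101, the lowest WN fish. Without both it was -0.226 (adjusted p 0.0140 in the exact permutation test). Removing the highest WH fish or the lowest WN fish makes these differences larger. Single fish left out gave -0.162 to -0.0873 for WH minus CT and -0.200 to -0.129 for WH minus WN, each past the threshold in 1 case. Over the alternatives, adjusted p ran from 0.0466 to 0.817 and from 0.0140 to 0.506. Against the chromosome 16 region the difference was -0.0425 (adjusted p 0.0329) at 100 reads or without fish 108, and -0.214 on medians over CpGs. No paired analysis was possible because the groups share no fish numbers; with tank as a random block the interactions were the same (adjusted p 0.405 for WH, 0.825 for WN); without fish 108, chosen after seeing the data, that of WN was 0.0653 on the log2 scale and that of WH -0.03. By read counts, the 57 to 59 reads of fish 108 cannot resolve levels under 5%. The shallowest other fish, WH fish 74 at 3 days, had a median of 6110 reads per CpG. Because reads are PCR copies, read counts do not give the number of molecules behind the levels of any fish.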
